A study of Mus musculus with 8 samples.

Results

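Sox5, Sox6 and Sox9 and 7 genes that act with them or under their control in cartilage (Wwp2, Acan, Hapln1, Matn1, Matn3, Matn4 and Comp) were followed in tissue from below and above the dorsal aorta of the mouse embryo. The 10 genes were chosen by name, and all 10 had a row among the 24675 rows with a gene symbol. The arrays measured 2 tissues of C57Bl/6 embryos at embryonic day 12.5. Ventral aortic tissue came from under the aorta, and dorsal aortic tissue from above its roof, up to the notochord. Each was laser microdissected from cryosections of the same embryos and hybridised to 4 mouse Gene 2.0 ST arrays (Affymetrix), numbered as biological replicates 1 to 4. No embryo carried an engineered allele or received an agent, per the labels, and whether a replicate number stands for 1 embryo or for several is not stated in the sources used here. Values are log2 intensities after RMA, so a difference of 1 is a doubling, and the array medians lay between 3.59 and 3.65. Under the array median a value is close to background, so differences measured there may come out too small. Each difference is the ventral value minus the dorsal value, in log2 units, with n = 4 arrays per tissue.

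Sox9 is the transcription factor that commits mesenchyme to cartilage, and it switches on its relatives Sox5 and Sox6. The 3 proteins then act together on enhancers of cartilage matrix genes. In the embryo the first cells to use this set around the aorta are those of the sclerotome, a somite compartment that condenses around the notochord to form vertebrae. The Sox9 protein is also made outside cartilage, among other places in neural progenitors, neural crest, gonad and several epithelia. Wwp2 encodes a ubiquitin ligase that is a target of Sox9 in cartilage, and an intron of it carries the gene of the cartilage miRNA miR-140.

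The sequences on which the results bear come from RefSeq (build GRCm38.p6) and are printed 5′ to 3′ on the strand of the gene. The first is a mature miRNA of the gene inside Wwp2, the only one with an entry. Its seed (bases 2 to 8) is in capitals, and it lies at chr8:107551288-107551308 on the plus strand.
mmu-miR-140-3p: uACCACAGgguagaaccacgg
The windows of Sox6, Wwp2 and Acan follow, because these 3 genes had all ventral arrays below all dorsal arrays and entered the fit (Matn4 also had no overlap but was not tested), and of the genes with an entry Sox6 was the only one with a match to the Sox motif. Each window spans 250 bases before to 50 bases after a transcription start, and capitals mark a match on either strand to AACAATG, to AACAAAG, to ATCAATG, to ATCAAAG, to TACAATG, to TACAAAG, to TTCAATG or to TTCAAAG, the letters that Sox proteins are known to bind. The 2 windows of Sox6 shown are those of its outermost start with an entry (chr7:116038695-116038994, minus strand) and of the start with the most matches (chr7:115995037-115995336, minus strand). The first is outermost only among the starts with an entry, since the gene itself runs to position 116040776. The windows of Wwp2 (chr8:107436120-107436419) and Acan (chr7:79052976-79053275) are on the plus strand.
Sox6, outermost start: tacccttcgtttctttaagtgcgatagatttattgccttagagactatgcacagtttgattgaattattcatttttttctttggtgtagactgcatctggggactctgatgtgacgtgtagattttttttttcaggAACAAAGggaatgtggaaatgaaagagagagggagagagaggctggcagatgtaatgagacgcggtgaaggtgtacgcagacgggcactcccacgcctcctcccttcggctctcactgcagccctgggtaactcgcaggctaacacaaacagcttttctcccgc
Sox6, start with 4 matches: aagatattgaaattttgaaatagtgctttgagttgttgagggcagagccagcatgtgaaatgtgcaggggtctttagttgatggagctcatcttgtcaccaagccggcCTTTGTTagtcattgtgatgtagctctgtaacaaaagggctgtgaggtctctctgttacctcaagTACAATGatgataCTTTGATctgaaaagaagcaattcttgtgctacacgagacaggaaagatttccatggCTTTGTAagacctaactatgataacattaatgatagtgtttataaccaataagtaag
Wwp2: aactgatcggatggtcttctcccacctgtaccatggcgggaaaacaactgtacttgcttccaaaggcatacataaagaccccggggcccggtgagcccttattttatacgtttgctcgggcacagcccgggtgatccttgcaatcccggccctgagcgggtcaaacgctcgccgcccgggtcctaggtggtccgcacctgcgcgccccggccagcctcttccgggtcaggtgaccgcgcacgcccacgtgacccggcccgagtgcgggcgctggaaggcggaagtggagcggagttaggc
Acan: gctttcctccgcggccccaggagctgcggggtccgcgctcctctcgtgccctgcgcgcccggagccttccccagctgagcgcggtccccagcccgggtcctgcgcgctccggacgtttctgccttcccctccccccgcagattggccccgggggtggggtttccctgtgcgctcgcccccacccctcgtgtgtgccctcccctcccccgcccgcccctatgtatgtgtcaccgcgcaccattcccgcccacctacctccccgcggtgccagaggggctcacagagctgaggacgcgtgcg
Of the 10 genes, 8 had an entry, with 14 windows in all. All 6 windows of Sox6 held a match, and the 8 windows of the other genes with an entry (Sox5, Wwp2, Acan, Hapln1, Matn1, Matn3 and Matn4) held none. The only Sox5 window (chr6:143947057-143947356, minus strand) lies inside the gene, which runs to position 144782287. A start at that end of Sox5 was therefore not searched. Over all 32851 windows of that length 24.6% held at least 1 match and 4.30% held 2 or more. No 2 matches in the Sox6 windows shared a base. The windows differ in base composition, at 36.7% to 63.3% G and C for Sox6, 64.3% for Wwp2 and 74.0% for Acan, against a median of 52.7% over all windows. A match is a description of these letters and no evidence of binding.

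Ventral tissue had lower values than dorsal tissue for 9 of the 10 genes (50.8% of all genes tested), of which Matn1 was under the array median on all 8 arrays, and the widest gaps were those of Acan, Hapln1, Wwp2 and Sox6. None of the 10 passed the test when arrays of the same replicate number were treated as pairs. That limma fit took in the 12416 genes that exceeded the median of the array on 4 or more arrays, with Benjamini-Hochberg adjustment over them, and called 0 at an adjusted p under 0.05 (0% of the genes tested). Unadjusted, limma gave a p under 0.05 to 519 genes lower (4.18% of the genes tested) and 507 higher (4.08%). Of the 10 genes, 6 entered the fit (Sox5, Sox6, Sox9, Wwp2, Acan and Hapln1), all of them lower in ventral tissue. Over all 10, tested or not, the median difference was -0.96, against -0.00058 over all named genes and -0.0039 over the genes tested. The genes were picked with earlier results of these data known, so these counts describe them and do not test the set. Fewer cartilage precursors in the ventral pieces and less RNA of these genes per cell cannot be told apart in such bulk tissue.

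**Figure D1:**
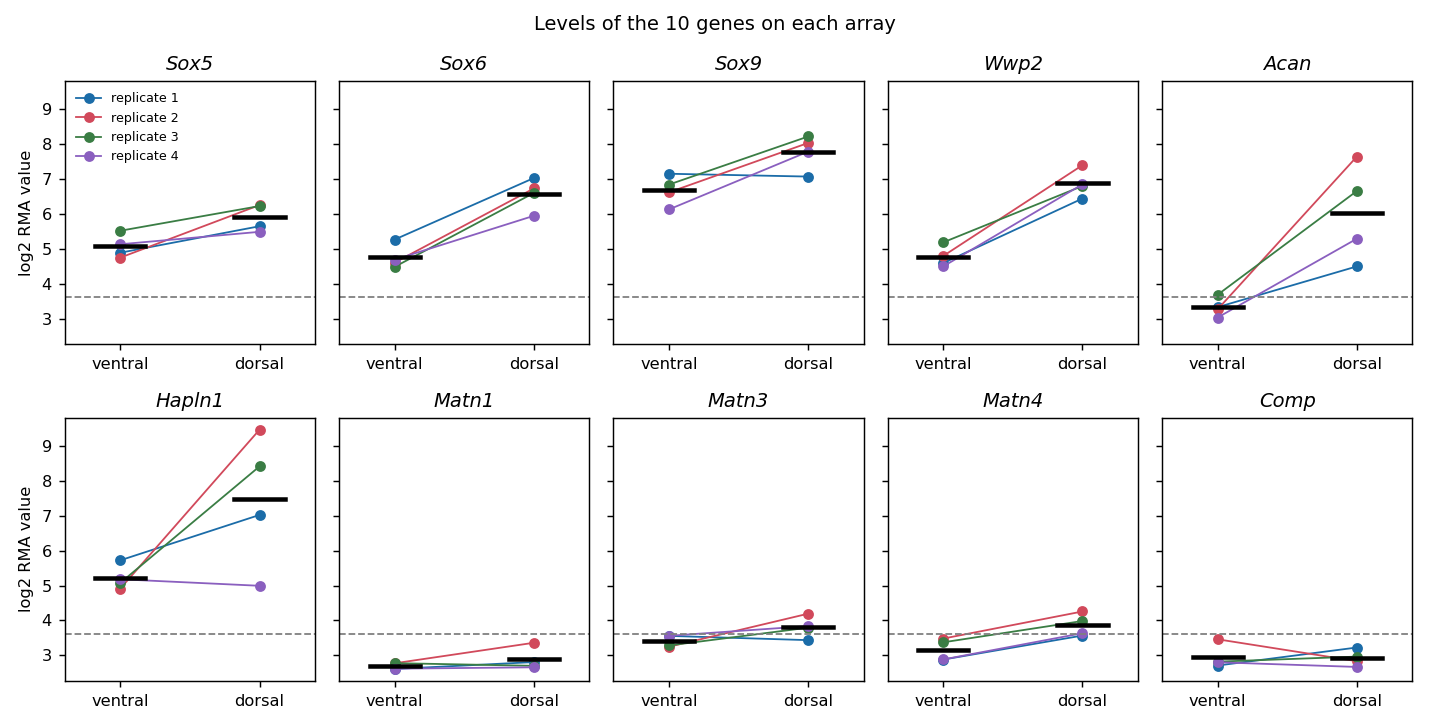
Each panel plots the log2 RMA value of 1 gene on the 4 ventral (left) and 4 dorsal (right) arrays, with lines joining arrays of the same replicate number, a thick bar for the tissue mean and a dashed line for the mean of the array medians. Wwp2, Sox6, Acan and Matn4 have no overlap between the tissues, while Matn1 and Comp stay under the dashed line on every array.

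Within the Sox trio, Sox6 separated the tissues most. Its values were 5.27, 4.61, 4.49 and 4.69 in ventral replicates 1 to 4, against 7.03, 6.73, 6.60 and 5.95 in dorsal replicates 1 to 4. Every ventral array lay below every dorsal one, as for 2.38% of the genes tested. Sox6 averaged 4.76 ± 0.35 in ventral and 6.58 ± 0.46 in dorsal tissue (SD, n = 4 each), a difference of -1.82 (SE 0.21), or 3.52-fold lower in ventral tissue. In limma its adjusted p was 0.0717, with the ninth smallest p of all genes tested.

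Sox9, the factor that starts the cartilage programme, was measured in both tissues. It stood at 7.16, 6.62, 6.85 and 6.13 in ventral replicates 1 to 4, against 7.07, 8.04, 8.22 and 7.79 in dorsal replicates 1 to 4. All 8 arrays were far above the array median, and the tissues overlapped through replicate 1 alone, where the ventral array was the higher by 0.08. The means were 6.69 ± 0.43 in ventral and 7.78 ± 0.50 in dorsal tissue (SD, n = 4 each), a difference of -1.09 (SE 0.29, limma adjusted p = 0.361). Without replicate number 1 the difference was -1.48 (limma adjusted p = 0.0691).

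Sox5, the partner of Sox6, had a smaller gap. It read 4.89, 4.75, 5.52 and 5.13 in ventral replicates 1 to 4, against 5.65, 6.26, 6.23 and 5.49 in dorsal replicates 1 to 4. All 4 replicate numbers were lower in ventral tissue (8.46% of the genes tested), but ventral replicate 3 lay just above dorsal replicate 4. The means were 5.07 ± 0.34 in ventral and 5.91 ± 0.39 in dorsal tissue (SD, n = 4 each), a difference of -0.83 (SE 0.23, limma adjusted p = 0.365).

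Wwp2 had the lowest p of the 10 genes. Its values were 4.60, 4.80, 5.19 and 4.50 in ventral replicates 1 to 4, against 6.44, 7.40, 6.80 and 6.85 in dorsal replicates 1 to 4. The closest ventral and dorsal arrays were over 1 log2 unit apart. Wwp2 averaged 4.77 ± 0.31 in ventral and 6.88 ± 0.40 in dorsal tissue (SD, n = 4 each), a difference of -2.11 (SE 0.22), or 4.30-fold lower in ventral tissue (limma adjusted p = 0.0717). In the fit without the replicate number it passed the threshold (limma adjusted p = 0.0225), 1 of 4 genes that did (0.0322% of the genes tested). That call was lost when dorsal replicate 2 or 3 or ventral replicate 2, 3 or 4 was left out, each of which left 0 genes called.

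The miRNA gene inside Wwp2 had its own row. Mir140 stood at 2.49, 2.37, 2.32 and 2.39 in ventral replicates 1 to 4, against 3.16, 7.43, 4.37 and 6.06 in dorsal replicates 1 to 4. All ventral arrays were low and close together (2.39 ± 0.07), and the dorsal arrays were spread widely (5.25 ± 1.88, SD, n = 4 each), with dorsal replicate 1 still under the array median. Only 3 arrays exceeded the median, so the row was not tested in the filtered fit. In the limma fit of all 24675 genes its difference was -2.86 (SE 0.69, adjusted p = 0.554). The array cannot say whether this row reads a mature miRNA, its precursor or intron RNA of Wwp2. The highest dorsal array was replicate 2 for both Wwp2 and Mir140, and the lowest was replicate 1 for both.

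**Figure D2:**
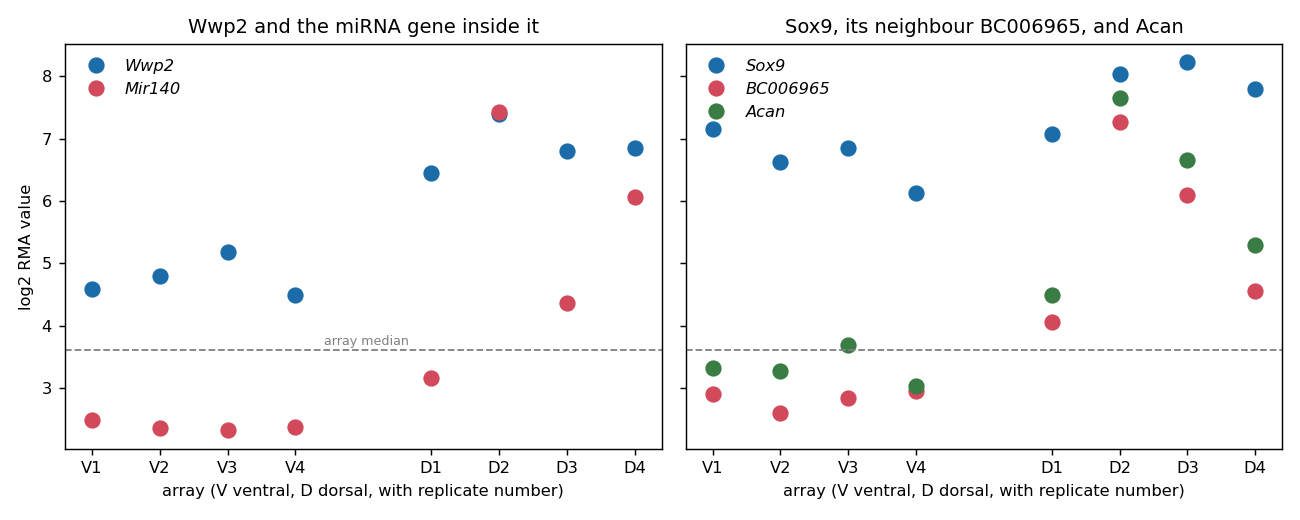
Points are log2 RMA values on each array, ventral arrays V1 to V4 at the left and dorsal arrays D1 to D4 at the right, with a dashed line at the mean of the array medians. The left panel has Wwp2 and Mir140 and the right panel Sox9, BC006965 and Acan; Mir140 and BC006965 lie under the dashed line on all ventral arrays, and on D2 the point of Mir140 covers that of Wwp2.

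The structural genes of the cartilage matrix were of 2 kinds, those with a clear dorsal signal and those near or under the array median everywhere. Acan encodes aggrecan, the large proteoglycan that holds water in cartilage. It read 3.33, 3.27, 3.69 and 3.03 in ventral replicates 1 to 4, against 4.50, 7.65, 6.66 and 5.29 in dorsal replicates 1 to 4. Its ventral arrays were all below its dorsal arrays, and ventral replicate 3 was the only ventral array above its median. The difference of -2.69 (SE 0.47, limma adjusted p = 0.202) rests on ventral values in the background range, and Acan passed the filter on low values through its dorsal arrays. Hapln1, the link protein that ties aggrecan to hyaluronan, read 5.73, 4.92, 5.08 and 5.18 in ventral replicates 1 to 4, against 7.03, 9.47, 8.42 and 4.99 in dorsal replicates 1 to 4. Dorsal replicate 4 thus lay within the ventral range, and the other dorsal arrays lay above it. Hapln1 differed by -2.25 (SE 0.71, limma adjusted p = 0.448), with -3.06 when replicate number 4 was left out and -1.48 when number 2 was.

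Matrilins are adaptor proteins that link collagen fibrils to aggrecan. Matn4 read 2.88, 3.48, 3.37 and 2.88 in ventral replicates 1 to 4, against 3.57, 4.26, 3.99 and 3.64 in dorsal replicates 1 to 4. Its tissues did not overlap, as for 1.84% of all named genes, and the 4 replicate numbers gave nearly the same difference, from -0.78 to -0.61. Matn4 exceeded the array median on 2 dorsal arrays only, so it was not in the filtered fit, and in the limma fit of all genes the difference was -0.71 (SE 0.12, adjusted p = 0.348). Matn3 averaged 3.41 ± 0.17 in ventral and 3.82 ± 0.31 in dorsal tissue (SD, n = 4 each), with overlap of the arrays and 3 dorsal arrays above the median. Matn1 stayed between 2.61 and 2.78 in ventral and between 2.66 and 3.36 in dorsal tissue. Comp, a pentameric matrix protein of cartilage and tendon, read 2.71, 3.46, 2.82 and 2.80 in ventral replicates 1 to 4, against 3.22, 2.83, 2.96 and 2.67 in dorsal replicates 1 to 4. Neither Matn1 nor Comp exceeded the array median on any of the 8 arrays, so no difference could be measured for them. In the limma fit of all genes the adjusted p was 0.825 for Matn3, 0.884 for Matn1 and 0.991 for Comp.

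The close relatives of these genes gave smaller differences than Sox6, Wwp2, Acan and Hapln1. Of 17 relatives, 13 were tested, 6 lower and 7 higher in ventral tissue, with 0 at an unadjusted p under 0.05 in either direction (background 4.18% lower and 4.08% higher). Ncan (-0.80, above the array median on 1 array) and Hapln2 (-0.18) were the relatives with all ventral arrays below the dorsal ones. Sox8, the nearest relative of Sox9 beside Sox10, averaged 4.51 ± 0.26 in ventral and 4.14 ± 0.07 in dorsal tissue (SD, n = 4 each), with all ventral arrays above the dorsal ones (2.01% of the genes tested) and a limma adjusted p of 0.618. Sox10 differed by -0.04, Sox13, the third gene of the Sox5 and Sox6 group, by -0.08, the ligase Wwp1 by 0.06, and versican (Vcan), the aggrecan relative of loose connective tissue, by -0.10. Matn2, a matrilin of many soft tissues, differed by 0.31 (SE 0.18), higher in ventral tissue in 4 of 4 replicate numbers. To ask whether a gene differed from its relative, the log2 ratio of both was taken within each array and compared between the tissues with an exact two-sided permutation test. Over 70 splits of the arrays this cannot give a p under 0.0286. The splits do not use the pairing by replicate number, within which 4 pairs could not give a p under 0.125. With adjustment over the 10 ratios examined none passed 0.05. The pairs were chosen with values of these arrays known, so the p-values describe them and are no independent evidence. The log2 ratio of Wwp2 to Wwp1 was -1.57 ± 0.59 in ventral and 0.59 ± 0.39 in dorsal tissue (SD, n = 4 each; exact p = 0.0286, adjusted 0.0714). The same exact permutation p-values were given by Sox9 to Sox8 (2.18 ± 0.30 in ventral and 3.64 ± 0.54 in dorsal tissue) and Sox6 to Sox13 (-0.14 ± 0.61 in ventral and 1.60 ± 0.49 in dorsal tissue). The tissues overlapped for Sox9 to Sox10 (2.70 ± 0.37 in ventral and 3.75 ± 0.61 in dorsal tissue; exact p = 0.0571), Sox5 to Sox13 (0.17 ± 0.39 in ventral and 0.92 ± 0.39 in dorsal tissue; exact p = 0.0571) and Hapln1 to Hapln3 (1.22 ± 0.68 in ventral and 3.63 ± 1.91 in dorsal tissue; exact p = 0.114). Acan to Vcan was -6.51 ± 0.37 in ventral and -3.91 ± 1.12 in dorsal tissue, and no p is given because Acan read close to background in ventral tissue. Within the trio the ratio of Sox6 to Sox5 was -0.31 ± 0.59 in ventral and 0.67 ± 0.47 in dorsal tissue (exact p = 0.0571, adjusted 0.0816), and Sox9 to Sox5 was 1.61 ± 0.56 in ventral and 1.88 ± 0.37 in dorsal tissue (exact p = 0.429, also 0.429 adjusted). Sox6 to Sox9 was -1.93 ± 0.38 in ventral and -1.20 ± 0.80 in dorsal tissue (exact p = 0.143, adjusted 0.159).

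**Figure D3:**
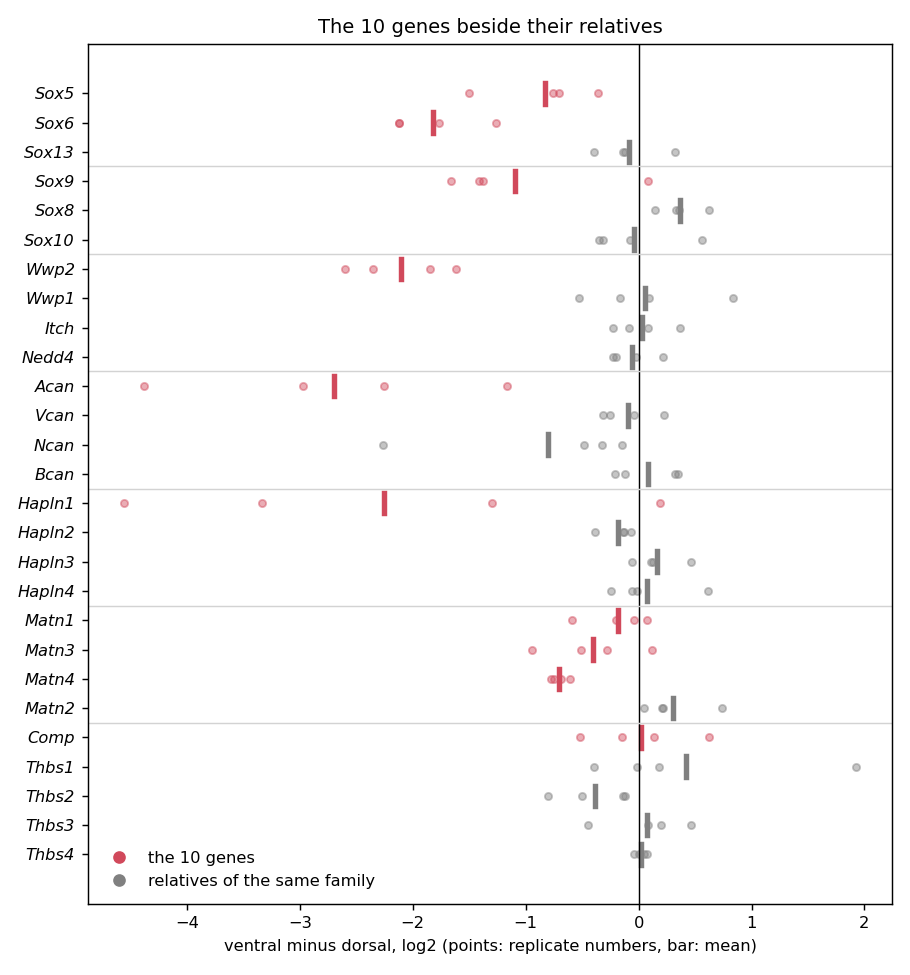
Each row gives the ventral minus dorsal difference (log2) of 1 gene, with a point per replicate number and a bar at their mean, for the 10 genes in red and their relatives in grey, grouped by family. The bars of Sox6, Wwp2, Acan and Hapln1 lie beyond -1.8, while those of Sox13, Wwp1, Vcan and Hapln3 lie near 0.

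Other genes of the cartilage matrix and of its sulfation were more often lower than higher in ventral tissue. Of 23 such genes, all in the table, 18 were lower and 5 were higher. The filter on low values kept 18 genes, of which 17 were lower and 1 was higher (50.8% of all genes tested were lower), and it can admit a gene through its dorsal arrays alone, as it did Chad. After adjustment 0 were called, and 11 had an unadjusted p under 0.05 as lower (background 4.18%) and 0 as higher (background 4.08%). Over the 23 genes the median difference was -0.51, against -0.00058 over all named genes. Col2a1, the main collagen of cartilage and a direct target of the trio, averaged 4.88 ± 0.22 in ventral and 7.57 ± 0.62 in dorsal tissue (SD, n = 4 each), a difference of -2.69 (SE 0.31, limma adjusted p = 0.0717, and 0.0222 without the replicate block). Chad, a leucine-rich cartilage protein, differed by -3.14 (SE 0.43, limma adjusted p = 0.119), with its ventral arrays all under the array median. Col11a1, a minor fibrillar collagen, differed by -1.63 (SE 0.30, limma adjusted p = 0.211). Cilp2, the 1 tested gene on the other side, differed by 0.11 (SE 0.14). The 4 untested genes that were higher in ventral tissue, each above the array median on at most 3 arrays, were Otor (0.72), Scrg1 (0.56), Ucma (0.37, all ventral arrays above the dorsal ones) and Cilp (0.22), named here after their values were seen. Genes of mature, hypertrophic cartilage and of bone gave no such pattern. Of the 9 such genes with a row, 3 were tested, Col10a1 (0.17), Bglap (0.11) and Sp7 (-0.22), and none had an unadjusted p under 0.05.

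Regulators and partners of Sox9 were also examined. Of the 25 with a row, 22 were tested, 16 lower and 6 higher (50.8% of all genes tested were lower), with 4 at an unadjusted p under 0.05 as lower (background 4.18%) and 0 as higher (background 4.08%). The 3 with the smallest p as lower were the sclerotome factors Pax9, Pax1 and Nkx3-2, which promote cartilage together with Sox9. Pax9 averaged 4.46 ± 0.37 in ventral and 6.51 ± 0.37 in dorsal tissue (SD, n = 4 each), a difference of -2.05 (SE 0.21). Pax1 differed by -2.28 (SE 0.24) and Nkx3-2 by -0.86 (SE 0.18), and the limma adjusted p was 0.0717, 0.0717 and 0.242 for the 3 genes in this order. Pax1 was under the array median in ventral replicates 1 and 4 (3.46 and 3.36), and its dorsal arrays alone met the filter on low values. The regulators and partners with the smallest p as higher were Meox1 (0.50, SE 0.34), Shh (0.29, SE 0.26) and Arid5b (0.17, SE 0.16). The other 14 tested Sox genes were split into 8 lower and 6 higher, with 0 at an unadjusted p under 0.05 in either direction. The 3 with the smallest p as higher were Sox8, Sox17 (0.32, SE 0.17) and Sox7 (0.23, SE 0.13), and the 3 with the smallest p as lower were Sox11 (-0.27, SE 0.18), Sox15 (-0.23, SE 0.15) and Sox4 (-0.24, SE 0.21).

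Within dorsal tissue the 10 genes did not vary as a block. Dorsal replicate 2 was the highest dorsal array for 7 of the 10, and the lowest was replicate 1 for 5 and replicate 4 for 5. These counts take in Matn1 and Comp, which were under the array median on every array, so that their order is one of background readings. Over the dorsal arrays 8 of the 10 genes had a wider range than over the ventral arrays, as did 50.7% of the genes tested. These 8 take in Acan, Matn1, Matn3 and Matn4, whose ventral readings were close to or under the array median, where a range may come out too small. The 3 matrilins were not among the genes tested. Dorsal replicate 4 was the low array for Hapln1 (4.99), while Wwp2 (6.85), Sox9 (7.79) and Mir140 (6.06) were not at their lowest there. Cnmd, chondromodulin, a cartilage membrane protein chosen here after its values were seen, was like Hapln1 in this, at 2.94 in dorsal replicate 4 and 4.89, 6.56 and 6.30 in dorsal replicates 1 to 3, against 2.86, 2.98, 2.74 and 2.77 in ventral replicates 1 to 4. Dorsal replicate 1 was the low array for Acan (4.50), Sox9, Wwp2 and Mir140 and the high array for Sox6 (7.03).

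**Figure D4:**
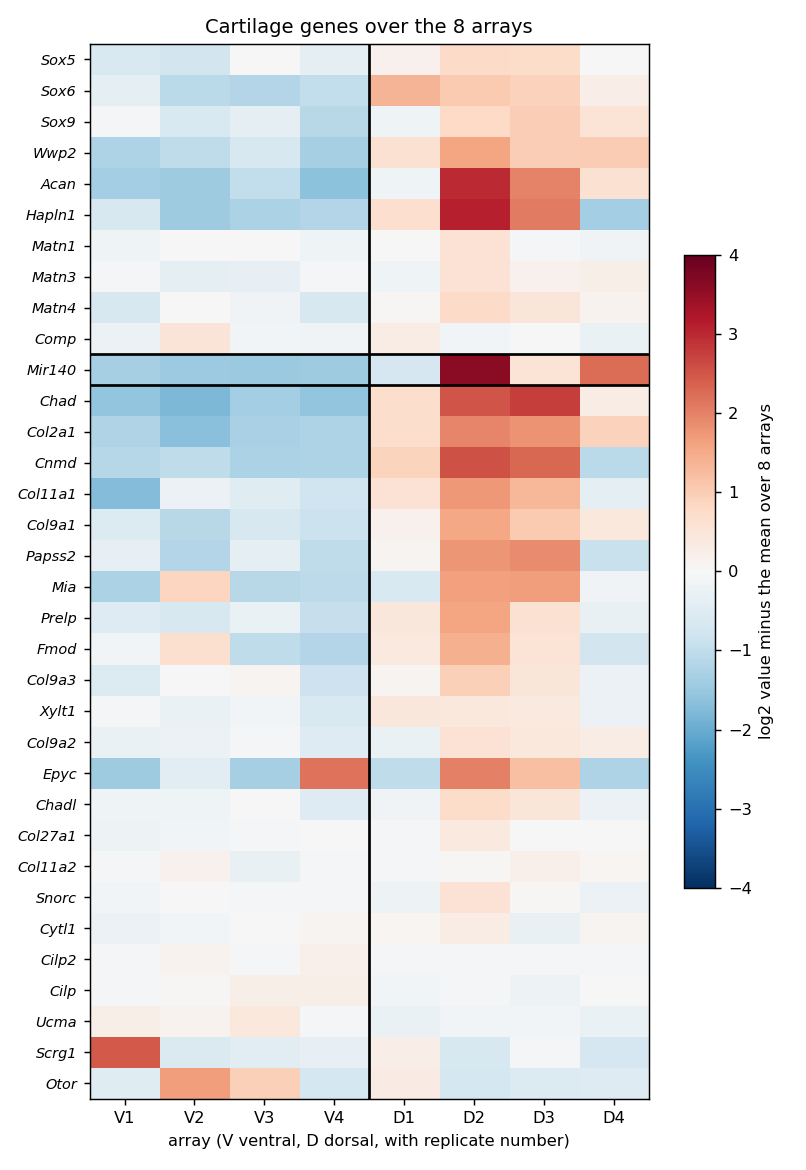
Colours give the log2 value of each gene minus its mean over the 8 arrays, from ventral (V1 to V4) on the left to dorsal (D1 to D4) on the right, for the 10 genes, Mir140 and the 23 other cartilage genes in order of their difference. Dorsal replicate 2 is the darkest red column for Acan, Hapln1 and Mir140, and Hapln1 and Cnmd are blue in dorsal replicate 4.

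Markers of other cell types that these pieces could hold were read on the same arrays. Sclerotome markers (6 in the table, all tested) had list means of 4.16 to 4.42 over the ventral and 5.03 to 5.78 over the dorsal arrays. In limma 5 of the 6 had an unadjusted p under 0.05 as lower (background 4.18%). Neural progenitor markers (11 in the table) had means of 3.56 to 4.20 in ventral and 3.63 to 5.26 in dorsal tissue, where 5.26 was dorsal replicate 1, the array low in Sox9 and high in Sox6. On that array Fabp7 (11.18), Sox2 (7.83), Zic1 (6.72), Nes (5.66) and Zic2 (5.37) were each at their highest of the 8 arrays. Sox3 (3.39) was at its lowest of the 8 arrays there, and Msi1 (5.11) and Hes5 (3.44) were not at their highest. Sox1, Pax6 and Olig2 were under the median on all 8. Red cell markers (7 in the table) had means of 6.76 to 7.87 in ventral and 6.59 to 9.30 in dorsal tissue, with 9.30 in dorsal replicate 4, the array low in Hapln1. Endothelial markers (6 in the table) had means of 5.19, 6.07, 5.52 and 4.42 in dorsal replicates 1 to 4, with replicate 2 the highest and replicate 4 the lowest, as for Hapln1, and of 5.27 to 5.69 in ventral tissue. Neural crest and Schwann precursor markers (5 in the table) had their highest mean in dorsal replicate 1, at 5.30, against 3.62 to 4.76 in ventral tissue. That mean includes Fabp7 (11.18), which is in both lists. Foxd3 (4.99) was also at its highest there, but Sox10 (4.12), Erbb3 (3.68) and Cdh19 (2.54) were not. Endoderm and duct epithelium markers (10 in the table) averaged 3.85 in dorsal replicate 1, their highest mean, and 3.47 to 3.71 in ventral tissue. Pax2 (4.79), Pax8 (3.76) and Lhx1 (4.92) exceeded the array median on that array only. Cdh1 (4.06), Epcam (3.19) and Krt8 (4.79) were at their lowest of the 8 arrays there. Of the tested genes, 4 of 4 were higher in ventral tissue. Epcam (0.45, SE 0.19) was the 1 with an unadjusted limma p under 0.05 (background 4.08%). The part of these cells in the values of the 10 genes was not tested. Notochord markers (8 in the table) had means of 4.45 to 5.04 in ventral and 4.51 to 5.30 in dorsal tissue. Noto and Foxa1 were under the median on all 8 arrays, and Krt8, Krt18 and Cd24a were above it on all 8. Of the 6 tested, 5 were higher and 1 was lower in ventral tissue. The lower one, Cd24a (-0.46, SE 0.15), was the only one with an unadjusted limma p under 0.05 (background 4.18%). Tendon markers (9 in the table) had means of 4.19 to 4.72 in ventral and 4.18 to 4.54 in dorsal tissue, and Scx, the tendon factor, differed by 0.25 (SE 0.31). Markers of gonad supporting cells (9 in the table) had means of 3.85 to 4.23 in ventral and 3.72 to 3.97 in dorsal tissue. Amh and Dmrt1 were under the median on all 8 arrays, and Wt1, Gata4 and Sox8 were above it on all 8. Of the 5 tested, 3 were higher and 2 lower in ventral tissue. Wt1 (0.84, SE 0.27) was the 1 with an unadjusted limma p under 0.05 as higher (background 4.08%). Sox8 was the 1 with all ventral arrays above the dorsal ones (2.01% of the genes tested). Visceral mesenchyme and mesothelium markers (10 in the table) had means of 4.98 to 5.77 in ventral and 4.31 to 5.09 in dorsal tissue. Of the 10, all tested, 7 were higher and 3 lower in ventral tissue. In limma 5 had an unadjusted p under 0.05 as higher (background 4.08%). All ventral arrays were above the dorsal ones for 3 (2.01% of the genes tested). Among the 10, Tcf21 (3.30, SE 0.38) and Gata6 (1.59, SE 0.18) had the same limma adjusted p of 0.0717 as Sox6 and Wwp2. Tcf21 exceeded the array median on 1 dorsal array only and passed the filter through its ventral arrays, so its difference rests on dorsal values near background. Smooth muscle markers (7 in the table) had means of 5.26 to 6.68 in ventral and 4.76 to 5.38 in dorsal tissue. Of these, 7 of 7 were higher, with 3 at an unadjusted limma p under 0.05 (background 4.08%). Skeletal muscle markers (8 in the table) had means of 3.67 to 3.96 in ventral and 3.78 to 4.76 in dorsal tissue. Here 4 of 4 tested were lower (50.8% of all genes tested were lower), with 0 at an unadjusted limma p under 0.05.

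Genes beside and inside the 10 loci were examined, using RefSeq for neighbourhood only. BC006965, the nearest gene with a row on the one side of Sox9, read 2.91, 2.60, 2.84 and 2.96 in ventral replicates 1 to 4, against 4.06, 7.27, 6.10 and 4.55 in dorsal replicates 1 to 4. Its ventral arrays were all under the array median and all below the dorsal arrays (2.38% of the genes tested), and it passed the filter through the dorsal arrays alone. The difference was -2.67 (SE 0.55, limma adjusted p = 0.241). Gm11681, the nearest gene with a row on the other side of Sox9, differed by -0.32 (SE 0.17). Sox5os3, which overlaps Sox5, differed by -0.61 (SE 0.14, limma adjusted p = 0.287), with all ventral arrays below the dorsal ones (2.38% of the genes tested). Its ventral arrays were all under the array median, so it too passed the filter through the dorsal arrays alone. Sox5os4, also in Sox5, differed by -0.12 and Sox6os, inside Sox6, by -0.05. Whether rows of overlapping genes share signal was not tested. Hapln3 beside Acan differed by 0.16, Vcan beside Hapln1 by -0.10, and Nob1 and Psmd7 on either side of Wwp2 by 0.31 and 0.02. Rps26-ps1, which overlaps Wwp2, differed by 0.29 (SE 0.08, limma adjusted p = 0.416). Upf1 beside Comp differed by -0.24 (SE 0.17), with all ventral arrays below the dorsal ones (2.38% of the genes tested). The tissues overlapped for the neighbours not named here.

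Genes with the profile most like that of a member over the 8 arrays were ranked by the root mean square distance of mean-centred log2 values among 10927 tested genes. The list is a description, since profiles share the tissue difference. For Sox9 the nearest were Lrig3 (distance 0.19), Ypel2 (0.24), Plekhg1 (0.26) and Ooep (0.28). Lrig3, a membrane protein, read 6.53, 6.41, 6.33 and 5.92 in ventral replicates 1 to 4, against 6.48, 7.86, 8.02 and 7.64 in dorsal replicates 1 to 4, and so shared with Sox9 a ventral replicate 1 above dorsal replicate 1. For Sox5 the nearest were Adcy4, Fat1, Cfap20dc and Sox5os3 (0.18 to 0.19), and for Sox6 they were Crabp1, a retinoic acid binding protein, Limch1, Sorbs2 and Creb5 (0.37 to 0.48). For Wwp2 they were Pax9 (0.24), Pax1 (0.38), Col9a1, a collagen of cartilage fibrils (0.39), and Sorbs2 (0.43). For Acan the nearest was BC006965 (0.23), the neighbour of Sox9 described above, followed by AI646519, Chad and Pax1 (each 0.51). Among the trio the distance was 0.43 between Sox5 and Sox9, 0.65 between Sox6 and Sox9 and 0.68 between Sox5 and Sox6.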

How the data were processed

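The authors deposited log2 expression values made with Affymetrix Expression Console and RMA, per the submitters' processing notes; no version is given in the sources used here. RMA corrects background, equalises the arrays and summarises probes, so each difference is measured against the bulk of the genes. Per the labels' protocols, picogram amounts of total RNA were amplified before labelling, which can add spread for weakly expressed genes. Of 25429 rows, 24675 had 1 gene symbol and 754 had none and were not used. The 12416 genes that exceeded the median of the array on 4 or more arrays were fitted with limma 3.58.1 in R 4.3.3 (lmFit, eBayes with trend and robust estimation, two-sided) with the replicate number as a block, since the labels say both tissues came from the same embryos. After the tissue means were removed, arrays with the same number correlated at 0.107, 0.029, 0.022 and 0.120 over genes, against -0.126 to 0.102 for different numbers, so the data only partly bear out the pairing, and p-values may then measure only the spread between these samples. The fit was checked on simulated data. Members and gene lists were chosen with earlier results of these data known. Named were the 10 genes, 12 fixed genes, up to 3 genes a list and direction with the smallest p, the 4 genes of closest profile for 5 members, and neighbours. Alternatives were no block, a random block, other filters, no trend, array weights, a second quantile normalization, and replicates or arrays left out. Array number limits the precision. Tbxt and some other listed genes were not analysed here.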

Additional observations from a re-analysis of the deposited data

Results flagged for a closer look

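Comp was the 1 gene of the 10 with an array set apart from its group. Ventral replicate 2 stood at 3.46, against 2.71 to 2.82 on the other ventral arrays, and the gap took up 0.852 of the range of the group, above the limit of Dixon's test for 4 samples. All 4 values lay under the array medians. Of 22 groups examined (the 10 genes and Mir140 in both tissues) this was the only one past the limit, and chance alone sets about 1 in 20 groups apart.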

How the results depend on the processing

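Sox5, Sox6, Sox9, Wwp2, Acan, Hapln1, Matn3 and Matn4 were each lower in ventral tissue under all settings run for them. Readings of Matn1 and Comp, under the array median on all 8 arrays, ran from -0.27 to -0.03 and from -0.18 to 0.21 and give no direction. Sox6 ranged from -2.03 to -1.67, Wwp2 from -2.27 to -1.93, Sox9 from -1.48 to -0.90 and Hapln1 from -3.08 to -1.48. With no replicate block, and with the block as a random effect, 4 genes in all and 1 of the 10 (Wwp2, adjusted p = 0.0225 and 0.0192) were called. The stricter filter, which adjusts over fewer genes, called 10 genes and 2 of the 10, Wwp2 (adjusted p = 0.0385) and Sox6 (0.0409). Leaving out replicate numbers in turn gave 0 to 9 genes (9 without number 1) and 0 of the 10 called, and a median difference of -1.17 to -0.83. Leaving out single arrays with no block gave 0 to 20 genes (8 without dorsal replicate 1, 9 without dorsal replicate 4 and 20 without ventral replicate 1, and 0 without any other array), 0 to 2 of the 10, and a median of -1.12 to -0.84. The number of the 10 lower in ventral tissue was 9 or 10 throughout. No filter, no trend or robust estimation, array weights and a second quantile normalization called 0 genes. Signal near background limits Acan in ventral tissue and Matn1, Matn3, Matn4, Comp and Mir140.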
